A study of Mus musculus with 9 samples.

Results

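The S-phase genes followed here were Hist1h1a and Hist1h1b, which encode linker histones, and Rrm2, which encodes a subunit of ribonucleotide reductase. These 3 genes, of 217 distinct genes with deposited values, were selected on their rows in the table of P-Por-Os against control and on the small amount of sequence they share with other histone copies. Every row of that table is a gene that the authors listed as higher after P-Por-Os, at a log2 fold no lower than 1 and a p-value under 0.05. The direction of the difference was therefore fixed by the choice, and the values of this contrast are given as a description, with no test. RNA from Hepa1-6, a mouse hepatocarcinoma cell line of wild-type genotype per the labels, was sequenced in 9 libraries. The control libraries are labelled as having had no treatment, and the series description gives PBS for them, the P-Por-Os libraries received the material of that name at 25.57 µg/mL, and the P-Por-Os+US libraries received the same dose together with ultrasound. There were 3 libraries in each group, and the labels do not say whether they came from separate cultures. The 3 genes had values in the 6 libraries of control and P-Por-Os.

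Chromosomal DNA is wrapped around core histones, and linker histones bind where the DNA enters and leaves that particle and help to compact the fibre. Replication-dependent histone genes are transcribed mainly in S phase, and their mRNA ends in a stem-loop in place of a poly(A) tail. Ribonucleotide reductase converts ribonucleotides to the deoxyribonucleotides used for DNA synthesis. Rrm2 is its small, radical-bearing subunit, whose level follows the cell cycle and peaks in S phase, and its mRNA is polyadenylated.

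The promoters of the 3 genes are shown because all 3 are S-phase genes that were listed as higher in the same comparison. Each runs from 250 bases before to 50 bases after the RefSeq start in the gene's own direction (RefSeq, GRCm38.p6), and all 3 genes were matched, the linker histones by their older symbols. Capitals mark the matches to CCAAT, to TATAAA and to AAACACA, a word known as the H1 box of linker histone promoters, on either strand. Hist1h1a lies at chr13:23763418-23763717 on the plus strand, Hist1h1b at chr13:21780576-21780875 on the minus strand, and Rrm2 at chr12:24708004-24708303 on the plus strand.
Hist1h1a: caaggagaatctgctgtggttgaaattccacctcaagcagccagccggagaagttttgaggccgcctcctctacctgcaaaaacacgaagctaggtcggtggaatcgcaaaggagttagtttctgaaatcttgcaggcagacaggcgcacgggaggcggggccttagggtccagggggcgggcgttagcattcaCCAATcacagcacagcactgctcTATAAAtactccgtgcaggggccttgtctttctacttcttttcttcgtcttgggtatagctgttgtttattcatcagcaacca
Hist1h1b: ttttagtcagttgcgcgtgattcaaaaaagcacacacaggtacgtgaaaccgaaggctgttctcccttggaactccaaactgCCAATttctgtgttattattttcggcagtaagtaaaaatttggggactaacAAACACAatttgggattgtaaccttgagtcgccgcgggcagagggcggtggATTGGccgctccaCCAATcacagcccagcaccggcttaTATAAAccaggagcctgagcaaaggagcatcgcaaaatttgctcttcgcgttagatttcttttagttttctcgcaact
Rrm2: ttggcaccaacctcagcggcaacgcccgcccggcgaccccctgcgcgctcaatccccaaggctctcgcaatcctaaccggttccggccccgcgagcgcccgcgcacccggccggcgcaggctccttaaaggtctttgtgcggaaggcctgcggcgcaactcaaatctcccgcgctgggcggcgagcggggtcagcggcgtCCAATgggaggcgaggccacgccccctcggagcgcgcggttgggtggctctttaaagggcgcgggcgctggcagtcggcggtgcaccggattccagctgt

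All 3 promoters held CCAAT shortly before the start, at position -56 in Hist1h1a, -53 in Hist1h1b and -50 in Rrm2, counted to the first base of the word. Over 32817 promoters of the same length, 37.4 percent held CCAAT on either strand, as did 14 of 17 promoters of listed core histone genes and 7 of 10 of linker histone genes. Hist1h1b held it at 2 more places, at -168 and, on the opposite strand, at -66. TATAAA was found at -33 in Hist1h1a and at -28 in Hist1h1b, in 13.6 percent of all promoters, in 12 of the 17 core histone promoters and in 4 of the 10 linker histone promoters. AAACACA was found in Hist1h1b, at -117, in 7.19 percent of all promoters, in 2 of the 17 and in 5 of the 10. The E2F words TTTCCCGC, TTTGGCGC, TTTCGCGC and TTTGCCGC were in none of the 3 windows, in 2.26 percent of all promoters, in 4 of the 17 and in 0 of the 10. The longest run that the 2 linker histone promoters share is 13 bases long, caccaatcacagc, and it begins at -58 in Hist1h1a and at -55 in Hist1h1b. It contains the CCAAT word. It was found in 7 of the 32817 promoters, among them Hist1h1a, Hist1h1b and Hist1h1t, which are 3 of the 10 linker histone genes examined, and in 0 of the 17 core histone promoters. Guanine and cytosine made up 52 percent of the Hist1h1a window, 46.3 percent of that of Hist1h1b and 71.3 percent of that of Rrm2. A match describes these letters and is not evidence that a factor binds there.

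Hist1h1a (ENSMUSG00000049539.3) is a single-exon gene on chromosome 13 from 23763666 to 23764406, on the plus strand (GRCm38, GENCODE M21). Hist1h1b (ENSMUSG00000058773.2) is a single-exon gene on the minus strand of the same chromosome, from 21779883 to 21780625. The starts of the 2 genes are 1.98 megabases apart within the Hist1 cluster. There 18 of 54 annotated protein-coding Hist1 genes were in the table, these 2 included, beside 1.05 percent of all genes tested. The core histone genes among them share sequence with other genes, as given below, so their listings are not independent. Rrm2 (ENSMUSG00000020649.11) lies on chromosome 12 from 24708241 to 24714146, with 2771 exonic bases in 9 merged exon blocks. No other annotated gene overlaps any of the 3 on either strand. The nearest neighbour of Hist1h1a is Hist1h3a, a core histone gene 1280 bases away, which was also in the table, and that of Hist1h1b is Hist1h3i, 2335 bases away, which had no row there.

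The reads of the 3 genes can be placed with less doubt than those of the core histones. Of the 31-base words of Hist1h1a, 2 of 711 (0.281 percent) occur in the transcripts of another gene. In Hist1h1b 28 of 713 words (3.93 percent) do, most of them in the linker histone genes Hist1h1d and Hist1h1e. In Rrm2 356 of 2789 words (12.8 percent) recur elsewhere, with the most in Gm48455 and Gm48445, which are annotated as processed pseudogenes and had no row in any table. The same share was at least 28.3 percent, with a median of 77.1 percent, in the 19 listed genes with core histone symbols.

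RPKM values give reads scaled to gene length in kilobases and to the library total. The totals behind them, read from the steps of whole reads in low values, were 35152600 to 37667500 reads in these 6 libraries. At those totals, the 743 exonic bases of Hist1h1b and the 2771 of Rrm2 gave whole numbers of reads in all 6 libraries. The shortest length at which Hist1h1a did so was 642 bases, which is its coding length with the stop codon, and not at its 741 exonic bases, so its reads appear to have been counted over the coding part. The reads below come from those lengths. The hepatocyte markers could not be used to check the cell line, since 0 of 12 had a row.

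Hist1h1b was the most abundant of the 3 genes. It stood at 237, 244 and 231 RPKM in P-Por-Os replicates 1, 2 and 3, and at 80.4, 91.3 and 102.8 RPKM in control replicates 1, 2 and 3. The groups did not overlap, as in 159 of all 160 listed genes (99.4 percent), and the lowest ratio of a P-Por-Os to a control library was 2.24. With that share, the gap between groups is not particular to any of the 3 genes. The means were 237 ± 6.78 RPKM after P-Por-Os and 91.5 ± 11.2 RPKM in control (SD, n = 3 each), a log2 ratio of 1.38. These values rest on 6171 to 6518 reads per P-Por-Os library and 2250 to 2686 per control library.

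Hist1h1a, the other linker histone, was far less abundant per length. Its RPKM was 13.6, 14.2 and 13.2 in P-Por-Os replicates 1, 2 and 3, and 4.22, 4.69 and 5.54 in control replicates 1, 2 and 3. As in nearly every listed gene, no P-Por-Os library lay within the control range, and the lowest ratio between a pair of libraries was 2.39. The means were 13.7 ± 0.502 RPKM against 4.82 ± 0.669 (SD, n = 3 each), a log2 ratio of 1.51. Only 102, 109 and 125 reads stand behind the control values, and 319, 328 and 306 behind those after P-Por-Os. The exact Poisson 95 percent interval of the value in control replicate 1 was 3.44 to 5.12 RPKM, and it contained the value in control replicate 2.

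Rrm2 showed the smallest difference of the 3. It was at 16.4, 16.8 and 17.5 RPKM in P-Por-Os replicates 1, 2 and 3, and at 6.60, 7.49 and 8.64 RPKM in control replicates 1, 2 and 3. The groups were apart here too, as in 99.4 percent of listed genes, with a lowest ratio between a pair of libraries of 1.90. The means were 16.9 ± 0.574 RPKM against 7.58 ± 1.02 (SD, n = 3 each), a log2 ratio of 1.16, from 1665 to 1750 reads per P-Por-Os library and 689 to 842 per control library. Its mean level per length in P-Por-Os was above that of Hist1h1a, at 16.9 against 13.7 RPKM.

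**Figure D1:**
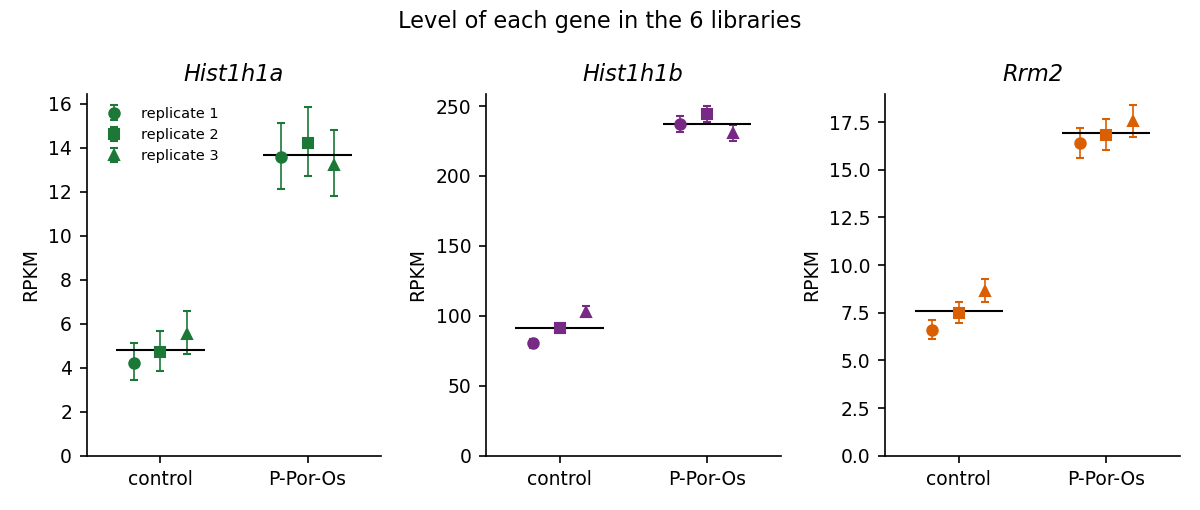
RPKM of Hist1h1a, Hist1h1b and Rrm2 (vertical axes from 0, a scale for each gene) in 3 control and 3 P-Por-Os libraries, one marker per library. Bars are exact Poisson 95 percent intervals of the reads and black lines are group means; in each gene the 3 P-Por-Os libraries sit above the 3 control libraries, and control replicate 3 is the highest of its group.

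All 3 of the 3 genes were listed as higher after P-Por-Os, where 1.05 percent of the 15270 genes tested were listed, and since the listing chose them the count says nothing of its own. In the authors' deposited table the log2 fold is 1.39 for Hist1h1a, 1.26 for Hist1h1b and 1.04 for Rrm2. These folds are lower than the log2 ratios of mean RPKM by 0.12, which was also the size of the median offset over the table (-0.12). The authors' deposited table gives p-values, from their edgeR processing, of 1.8e-09 for Hist1h1a, 1.7e-15 for Hist1h1b and 3.1e-12 for Rrm2. Ranked by that p among all genes tested, Hist1h1b stood at position 1, Rrm2 at 36 and Hist1h1a at 276. Ranked by the fold in that table they stood at positions 73, 142 and 49 of 160. The order by p was also the order by reads, at 19141, 5091 and 953 summed over the P-Por-Os libraries. Both p and fold were used in the listing, so these ranks describe selected genes and are no support for a difference.

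**Figure D2:**
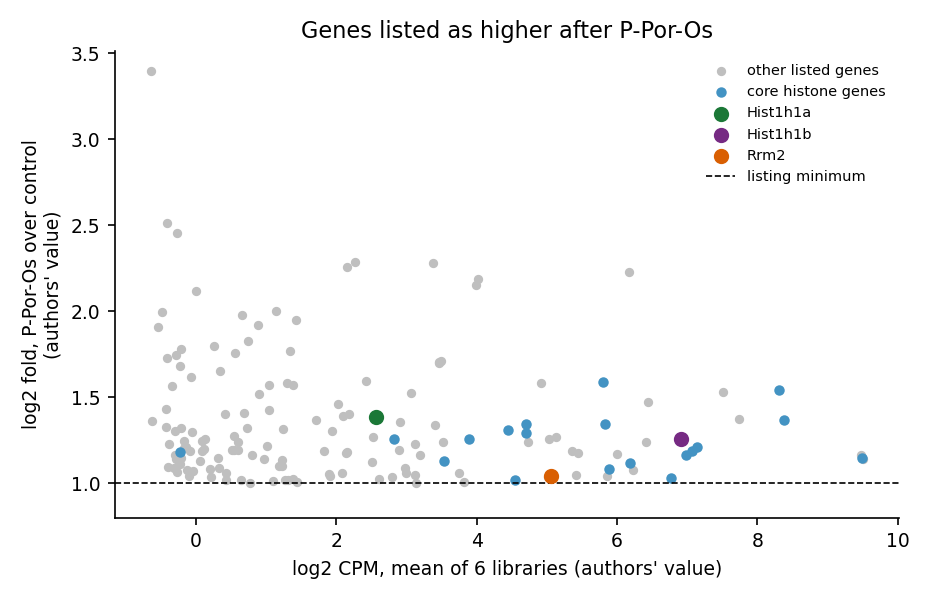
Log2 fold of P-Por-Os over control against mean log2 CPM, both the authors' values, for the 160 listed genes, with the 3 genes and 19 core histone genes in colour. The dashed line is the listing minimum of 1, and Rrm2 at 1.04 lies just above it.

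Rrm2 was near the edge of the list. In the authors' deposited table its log2 fold was 0.04 above the minimum, and 18 of the 160 genes had a lower one, the lowest being Gm45518 at 1.00017, Capg at 1.00 and Urb1 at 1.01. Genes just below the minimum had no row and were not analysed here. When control replicate 1 was left out, the log2 ratio of mean RPKM of Rrm2 was 1.07. With the offset of -0.12 it becomes 0.95, which is below the minimum. The same steps gave 1.42 and 1.30 for Hist1h1a and 1.29 and 1.17 for Hist1h1b. That offset came from all 6 libraries and was not estimated again, so these values only approximate the authors' scale. The 3 genes had no row in the tables that set P-Por-Os+US against control and against P-Por-Os alone, where 0.403 percent of 15142 and 0.179 percent of 15074 genes tested were listed as higher. Their levels with ultrasound were not analysed here, and those tables would not show a gene that was lower with ultrasound.

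The control libraries were spread more widely than the P-Por-Os libraries in all 3 genes. The SD was 13.9, 12.3 and 13.5 percent of the control mean for Hist1h1a, Hist1h1b and Rrm2, against 3.67, 2.86 and 3.39 percent after P-Por-Os. Poisson counting error alone amounts to 9.48, 2.02 and 3.64 percent per control library. For Hist1h1b and Rrm2 the spread between control libraries therefore exceeded what the number of reads accounts for, while for Hist1h1a after P-Por-Os, with a counting error of 5.61 percent, the spread was below it. Intervals and counting errors cover counting only, since reads are not independent molecules.

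**Figure D3:**
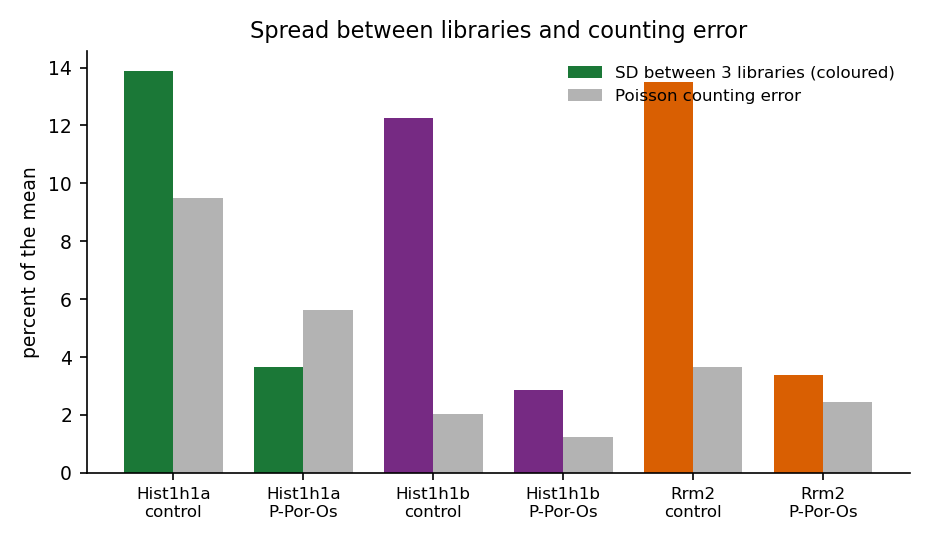
SD between the 3 libraries of a group (coloured bars) and Poisson counting error per library (grey bars), both in percent of the mean, for each gene and group. The coloured control bars stand between 12.3 and 13.9 percent and those of P-Por-Os between 2.86 and 3.67 percent.

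That control spread took the same form in each gene. Control replicate 1 was the lowest and control replicate 3 the highest library for Hist1h1a, Hist1h1b and Rrm2 alike. For Hist1h1a the Poisson intervals of control replicates 1 and 3 overlapped, at 3.44 to 5.12 and 4.61 to 6.60 RPKM, so its order rests on few reads. Relative to the mean of the other 2 controls, control replicate 1 was at -0.28, -0.27 and -0.29 on the log2 scale, and control replicate 3 at 0.31, 0.26 and 0.29. After P-Por-Os the genes did not keep a common order. Replicate 2 was the highest for both linker histones, at 0.09 and 0.06 above the mean of the other 2 on the log2 scale, whereas replicate 3 was the highest for Rrm2, at 0.08. For Hist1h1a and for Rrm2 the Poisson intervals of the 3 P-Por-Os libraries overlapped. Those of Hist1h1a were 12.7 to 15.9 RPKM in replicate 2 and 11.8 to 14.8 RPKM in replicate 3. The order of these libraries was not tested.

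Many other listed genes shared the low position of control replicate 1. It was the lowest control in 110 of all 160 listed genes, with a median of -0.35 relative to the other 2 controls, and in 18 of 19 core histone genes, with a median of -0.51. Control replicate 3 was the highest control in 99 of all 160, with a median of 0.29, and in 18 of the 19, with a median of 0.35. Neither position is therefore particular to the 3 genes followed here. All of these genes were listed for being lower in these same controls. Genes without a row have no values here, so these counts have no background. In 15 of those 19 control replicate 1 lay lower than in any of the 3 genes followed here, and its range over the 19 was -1.07 to 0.09. The differences without control replicate 1 are those given above, with log2 ratios of 1.42, 1.29 and 1.07.

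**Figure D4:**
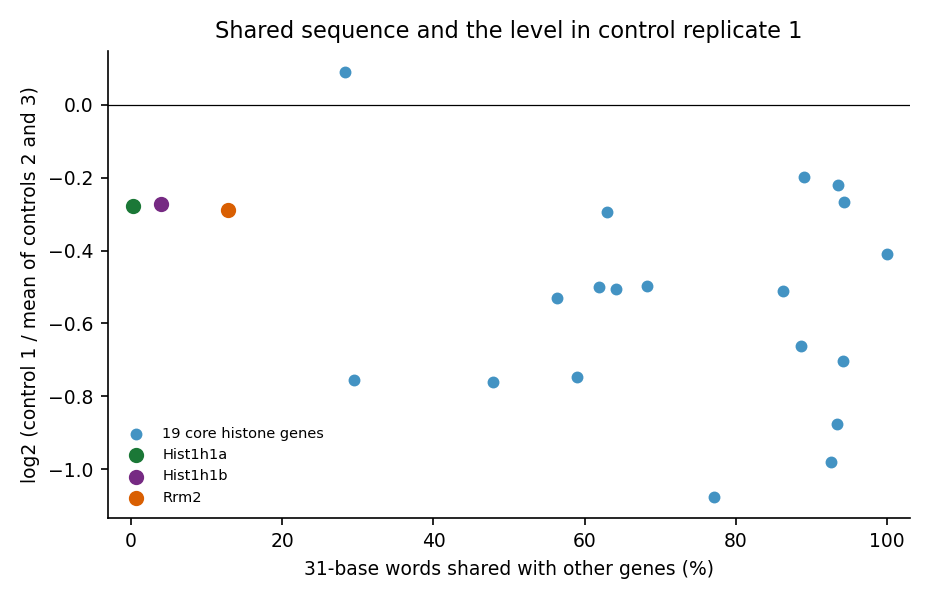
Log2 ratio of control replicate 1 to the mean of the other 2 controls against the percent of 31-base words shared with other genes, 1 point per gene. Hist1h1a, Hist1h1b and Rrm2 lie between -0.29 and -0.27 at shares of at most 12.8 percent, and the 19 core histone genes spread from -1.07 to 0.09 at shares of 28.3 percent or more.

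The ratio between the linker histones varied little within each group and was slightly higher after P-Por-Os. Hist1h1a amounted to 5.72, 5.82 and 5.74 percent of the Hist1h1b RPKM in P-Por-Os replicates 1, 2 and 3, and to 5.25, 5.14 and 5.39 percent in control replicates 1, 2 and 3. The P-Por-Os libraries lay above the control libraries, with means of 5.76 ± 0.0546 and 5.26 ± 0.122 percent (SD, n = 3 each), a difference of 0.503 percentage points. Of the reads of both genes, Hist1h1a held 4.74 percent in the sum of P-Por-Os libraries, with an exact Clopper-Pearson 95 percent interval of 4.45 to 5.05. In control the share was 4.35 percent, with an interval of 3.91 to 4.83. These intervals overlap. In single libraries the interval of the share was wider, at 3.55 to 5.24 percent in control replicate 1 and 4.22 to 5.24 percent in P-Por-Os replicate 1. The libraries of a group thus lay closer together than counting alone would require. The small SDs are no measure of precision, and the difference in ratio was not tested. It restates that the log2 ratio of Hist1h1a between groups, 1.51, was larger than the 1.38 of Hist1h1b. How many other pairs of listed genes have ratios that lie apart in this way was not counted.

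Rrm2 stood lower relative to Hist1h1b after P-Por-Os than in control. It amounted to 6.92, 6.89 and 7.60 percent of the Hist1h1b RPKM in P-Por-Os replicates 1, 2 and 3, and to 8.21, 8.21 and 8.41 percent in control replicates 1, 2 and 3. The groups did not overlap, with means of 7.14 ± 0.402 and 8.28 ± 0.113 percent (SD, n = 3 each). The ratio does not depend on the library total. It restates that the log2 ratio of Rrm2 between groups, 1.16, was smaller than the 1.38 of Hist1h1b. Here too, other pairs of listed genes were not counted, so the gap has no background.

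Genes with the most similar profiles in the same table were found by the root mean square difference of log2 RPKM over the 6 libraries, after each gene was centred on its own mean. For Hist1h1b the nearest 5 of 159 genes were Hmgn2, which encodes a nucleosome-binding protein, Heatr1, a ribosome biogenesis factor, Hist1h2aj, Bcl2l15 and Hist1h1a, at differences of 0.042 to 0.069. The median over the 159 genes was 0.23. Hmgn2 averaged 16.8 ± 0.292 RPKM in the P-Por-Os libraries and 6.43 ± 1.08 RPKM in the controls (SD, n = 3 each). For Hist1h1a they were Sprr1b, a cornified envelope gene, Hmgn2, Hist1h1b, Clca3b, a chloride channel accessory gene, and the model Gm44492, at 0.065 to 0.082. So each linker histone was among the 5 nearest of the other. Gm44492 is annotated as a microRNA, and it averaged 2275 RPKM after P-Por-Os and 813 RPKM in control. The source of its reads was not tested.

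Rrm2 had other neighbours. They were Urb1, which acts in ribosome biogenesis, the carboxylesterase gene Ces2e, Grwd1, a histone-binding and ribosome assembly factor, and the models Gm44486 and 9830144P21Rik, at 0.034 to 0.066. Urb1 was at 2.38 ± 0.101 RPKM against 1.09 ± 0.123, and Grwd1 at 29.2 ± 0.969 against 13.02 ± 1.48 (SD, n = 3 each). Gm44486 is annotated as a microRNA, and it averaged 330 RPKM after P-Por-Os and 148 RPKM in control. Hist1h1b was at rank 26 from Rrm2, with a difference of 0.12, and Hist1h1a at rank 50, with 0.18. All listed genes share the step between the groups that selected them, so the measure reads the size of that step together with the spread within groups. The neighbours also depended on the settings: of the 5, between 2 and 5 remained for Hist1h1a, between 1 and 5 for Hist1h1b and between 1 and 5 for Rrm2 over 8 alternatives each, and without control replicate 1 the numbers were 2, 1 and 3.

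**Figure D5:**
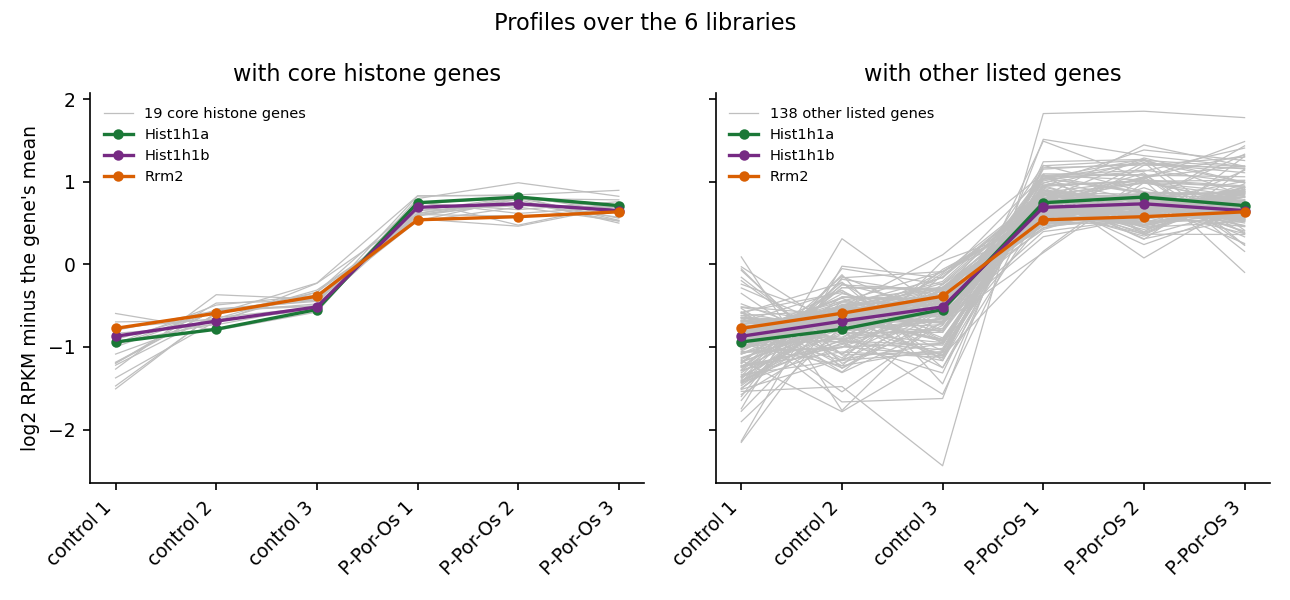
Log2 RPKM minus the mean of the gene over the 6 libraries, for the 3 genes (coloured) among 19 core histone genes (left, grey) and 138 other listed genes (right, grey); lines join the values of 1 gene and imply no order of replicates. Rrm2 has the smallest step of the 3 between the groups, and all 3 are lowest in control replicate 1.

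Other genes of the same processes were looked up in the table, where 1.05 percent of all genes tested were listed. Of 10 linker histone genes, 2 were listed as higher after P-Por-Os, namely Hist1h1a and Hist1h1b. Of 19 genes of deoxyribonucleotide supply, which include the partner subunit Rrm1, the p53-inducible Rrm2b, thymidylate synthase and thymidine kinase, 1 was listed, namely Rrm2. None of 40 genes of replication licensing and the replication fork was listed, nor any of 22 G1/S regulators, 22 G2/M genes, 20 genes of replication stress and DNA damage, or 19 factors of histone mRNA processing and histone supply, among them Slbp, which binds the histone stem-loop. With 1.05 percent listed over all genes, counts of 0 in lists of this size are near the background and are no result about these processes. The lists do not hold every gene of them: Dna2, a nuclease and helicase of the replication fork that was named after its value was seen, is in the authors' deposited table with a log2 fold of 1.23. Genes without a row either lay below the listing minimum or were not given, and nothing here says that they were the same in both groups. None of these lists had a member listed in either comparison with ultrasound, nor did the linker histone, deoxyribonucleotide and core histone lists. The share listed as higher over all genes tested was 0.403 percent for P-Por-Os+US against control and 0.179 percent against P-Por-Os alone. At such shares, counts of 0 are near the background for these lists too and are no result about ultrasound. Genes that were lower with ultrasound would not be shown.

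Core histones made up the largest histone group in the table. Of 61 annotated protein-coding genes with core histone symbols, 18 were listed, beside 1.05 percent of all genes tested. A further listed gene, Hist1h2aj, is annotated as a pseudogene. Annotated genes need not all have been tested, so the 2 shares have unlike denominators. These 19 listed genes share sequence with other genes, as given above, so their listings are not independent. The median log2 fold of these 19 in the authors' deposited table was 1.21, within a range of 1.02 to 1.59, beside 1.24 over all 160 listed genes. The folds of Hist1h1a (1.39) and Hist1h1b (1.26) lay inside that range above its median, and that of Rrm2 (1.04) near its lower end. In control the median SD between libraries was 20.3 percent of the mean for the 19 core histone genes, the same as over all 160 listed genes (20.3 percent), beside 12.3 to 13.9 percent in the 3 genes followed here. After P-Por-Os the median was 6.99 percent for the core histone genes and 9.07 percent over all listed genes. These are descriptions of genes selected on the same libraries, and the difference between the groups of genes was not tested.

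The labels' protocols name both an mRNA library kit and a kit for depletion of ribosomal RNA, without saying which libraries were made with which. Since histone mRNA carries no poly(A) tail and Rrm2 mRNA does, the levels of the linker histones relative to Rrm2 can depend on that choice, and its part was not tested. Some markers of other cell types were listed in the same table. Of 10 keratinocyte markers Krt16 and Ivl were listed, and of 6 macrophage markers Cd14, beside 1.05 percent of all genes tested. The summed level of Krt16 and Ivl was 13.7 to 15.5 RPKM after P-Por-Os against 2.76 to 3.11 in control. In the authors' values Ivl had a mean log2 CPM of 3.99 and Krt16 a low one of -0.64. Cd14 was at 3.76 to 4.25 against 1.34 to 1.52 RPKM. The other markers of both lists, Krt5, Krt14, Adgre1 and Ptprc among them, had no row, as did all 5 fibroblast markers, and the part of other cells in the result was not tested. In such bulk RNA, more cells in S phase and more RNA per cell cannot be told apart.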

How the data were processed

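RNA-seq libraries of Hepa1-6 cells, 3 of control and 3 of P-Por-Os, entered the comparison; groups and replicate numbers came from the sample titles. The submitters' processing notes name the build GRCm38 and the tools edgeR 3.12.1, Subread 1.5.1 with featureCounts, and fastp 0.23.4; an aligner, an annotation and a strand setting are not given there. The authors deposited RPKM values per library, in which reads and fragments cannot be told apart. Log2 folds, log2 CPM, the F score, p-values and adjusted p-values were computed by the authors, per the file headers.

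No test was run, because the genes were selected on this contrast; means, SDs, log2 ratios without a pseudocount and no filter on low values were used. The members and lists were chosen with earlier results of these data known. The number of genes tested was found as the number that makes p over adjusted p a whole rank in most rows (72.5 percent of the 160). Library totals were found as those at which RPKM times length gave whole reads within 0.05, for 88.4 to 92.1 percent of values under 400 reads, against 9.40 to 9.78 percent at other totals. Both searches were tested on simulated data. Lengths and words of 31 bases came from GENCODE M21, of the same build. Each further named gene is among the 5 nearest profiles of a member, on one of the gene lists, or lowest in the table by fold; Hist1h3i, Hist1h1t, Hist1h1d, Hist1h1e and the pseudogenes were named from annotation or sequence, and Dna2 after its value was seen. Deviations of same-numbered libraries from their group means were hardly related (r of 0.00, 0.16 and -0.02 over 160 genes), so replicate numbers were not used as pairs. Python 3.11.15, numpy 2.4.6, pandas 2.3.3, scipy 1.17.1 and matplotlib 3.10.9 were used.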

Additional observations from a re-analysis of the deposited data

How the results depend on the processing

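The log2 ratios of mean RPKM of Hist1h1a, Hist1h1b and Rrm2 were 1.51, 1.38 and 1.16. With a pseudocount of 1 RPKM that of Hist1h1a became 1.34, which the pseudocount lowers by construction at low levels, and with the authors' scaling the values were 1.39, 1.26 and 1.04. When single libraries were left out the ranges were 1.42 to 1.62 for Hist1h1a, 1.29 to 1.47 for Hist1h1b and 1.07 to 1.26 for Rrm2. The difference in the ratio of Hist1h1a to Hist1h1b, 0.503 percentage points, ran from 0.445 to 0.567. At a log2 fold minimum of 2, the 3 listed members became 0 and the 160 listed genes 11, and 101 of the 160 had a mean of at least 1 RPKM. At an adjusted p under 0.05 or under 0.01 all 3 members stayed listed, as did 159 and 146 of the 160 listed genes. With those shares, staying listed is not particular to the 3 genes. The authors' scaling was also approximated by the offset, a setting chosen after seeing the data. On it, leaving out a library kept 2 to 3 members and 120 to 157 genes above the fold minimum, the lower numbers without control replicate 1. Without the offset the numbers were 3 and 148 to 160. With a replicate block, as the mean of log2 ratios within a number, the ratios were 1.51, 1.38 and 1.17 and the difference 0.503, and the numbers do not mark pairs. The direction could hardly change, since the genes were selected for it. Depth limits Hist1h1a, with 102 to 125 reads per control library.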
